A study of Mus musculus with 9 samples.

Results

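The genes described here carry signals of the transforming growth factor beta (TGF-beta) family: 45 listed genes for TGF-beta, activin and bone morphogenetic protein (BMP) ligands, their receptors, secreted inhibitors, Smad proteins and Id target genes. They were chosen by symbol. Of these, 44 were found among the 19505 gene symbols of the array, each with 1 transcript cluster, the array's unit for the transcripts of a gene. Gdf15, the remaining gene, was not analysed here. RNA came from submandibular salivary glands of 12-week-old female C57BL6/J mice and was hybridised to Clariom S arrays, with 3 biological replicates in each of 3 groups. The groups were glands healing for 3 days after mock surgery, for 3 days after partial gland resection and for 14 days after partial resection. All mice had surgery and no gene was altered. With mock glands of day 3 as the one control, a day 14 difference mixes resection with the longer time since surgery, and these cannot be told apart. All values are log2 expression values as the authors deposited them, and a difference of 1 would be a doubling on a calibrated scale, which this scale is not known to be.

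TGF-beta family ligands are secreted dimers that bring together type II and type I receptor kinases on the cell surface. TGF-beta and activin receptors phosphorylate Smad2 and Smad3, BMP receptors phosphorylate Smad1 and Smad5, and both sets join Smad4 to regulate genes in the nucleus. TGF-beta is held latent in the matrix until it is released, and is best known in wounded tissue for its action on fibroblasts and matrix, whereas BMP and activin signals, with their inhibitors follistatin, gremlin, noggin and chordin, are known from branching of the developing salivary gland.

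Upstream sequences are shown for 4 genes that rose together on day 3: the ligand Tgfb1, its signalling receptor Tgfbr2, the co-receptor Eng and Nrros, which tethers latent TGF-beta to cells. Each is the 250 bases before the gene's start in RefSeq, build GRCm38.p6, written 5′ to 3′ on the gene's strand, at chr7:25686752-25687001 (plus strand), chr9:116175364-116175613 (minus), chr2:32646345-32646594 (plus) and chr16:32165595-32165844 (minus). Tgfb3 also rose. Capitals mark matches to 5 motifs searched on both strands: the AP-1 site TGANTCA, the cAMP response element TGACGTCA, the GC box GGGCGG, the Smad motif CAGAC and the BMP Smad motif GGCGCC.
Tgfb1: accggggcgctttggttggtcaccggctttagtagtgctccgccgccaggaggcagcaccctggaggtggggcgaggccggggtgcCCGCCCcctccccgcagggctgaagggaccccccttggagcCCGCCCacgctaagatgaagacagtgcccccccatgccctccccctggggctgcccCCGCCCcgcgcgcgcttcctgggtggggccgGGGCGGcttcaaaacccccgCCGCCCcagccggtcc
Tgfbr2: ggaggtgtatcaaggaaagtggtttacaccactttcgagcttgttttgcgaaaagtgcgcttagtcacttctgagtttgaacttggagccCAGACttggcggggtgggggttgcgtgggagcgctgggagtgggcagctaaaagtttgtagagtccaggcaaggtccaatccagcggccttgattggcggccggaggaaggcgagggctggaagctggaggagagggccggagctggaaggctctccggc
Eng: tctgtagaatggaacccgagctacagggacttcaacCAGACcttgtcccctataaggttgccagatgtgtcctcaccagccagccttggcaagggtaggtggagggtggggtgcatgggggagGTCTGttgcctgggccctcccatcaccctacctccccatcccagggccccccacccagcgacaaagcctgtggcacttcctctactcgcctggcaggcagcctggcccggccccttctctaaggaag
Nrros: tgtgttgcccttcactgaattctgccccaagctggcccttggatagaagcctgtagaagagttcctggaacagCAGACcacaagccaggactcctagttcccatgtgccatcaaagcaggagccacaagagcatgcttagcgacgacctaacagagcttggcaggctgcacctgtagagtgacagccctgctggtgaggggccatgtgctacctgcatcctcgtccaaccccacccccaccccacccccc
The Tgfb1 window held 5 GC boxes and none of the other motifs. The windows of Tgfbr2, Eng and Nrros held 1, 2 and 1 copies of CAGAC and none of the others. GC boxes were present in 32.7% and CAGAC in 42.2% of all 32851 windows of this length. The AP-1 site was present in 6.75% of them, the cAMP response element in 1.55% and GGCGCC in 9.59%. Windows were at hand for 32 of the 45 genes, 41 windows in all, of which 28 held a GC box, 19 CAGAC, 10 GGCGCC, 1 the cAMP response element and 0 the AP-1 site. These matches describe letters only.

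On day 3 after resection, 3 of the 44 genes were higher than in mock glands and 0 were lower: the ligands Tgfb1 and Tgfb3 and the receptor Tgfbr2. At day 14, 0 of the 44 were called against mock, beside 0.0991% of all transcript clusters called higher and 0.0540% lower. In limma 6 of the 44 had an unadjusted p under 0.05 then, so the absence of calls does not show a return to the mock level. Tgfb1 was lower on day 14 than on day 3. The BMP, activin, Smad and Id genes gave no call in any of the comparisons. Calls are adjusted p under 0.05 from limma, a linear model fitted to all 9 arrays and all 22206 transcript clusters, with Benjamini-Hochberg adjustment within each comparison. The 3 rises are 6.82% of the 44 genes, beside 4.92% of all transcript clusters called higher on day 3 and 1.36% called lower. This share is near the background, so the data do not set the signalling genes as a group apart from the rest of the array. The median difference was -0.01 over the 44 genes and -0.06 over all transcript clusters. Mock and day 3 resected values did not overlap for 9 of the 44 genes (20.5%), beside 23.0% of all transcript clusters. At an unadjusted p under 0.05 in limma, 5 of the 44 differed on day 3 (11.4%), beside 18.6% of all transcript clusters. Day 3 counts at this threshold given below are to be read beside that 18.6%.

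**Figure D1:**
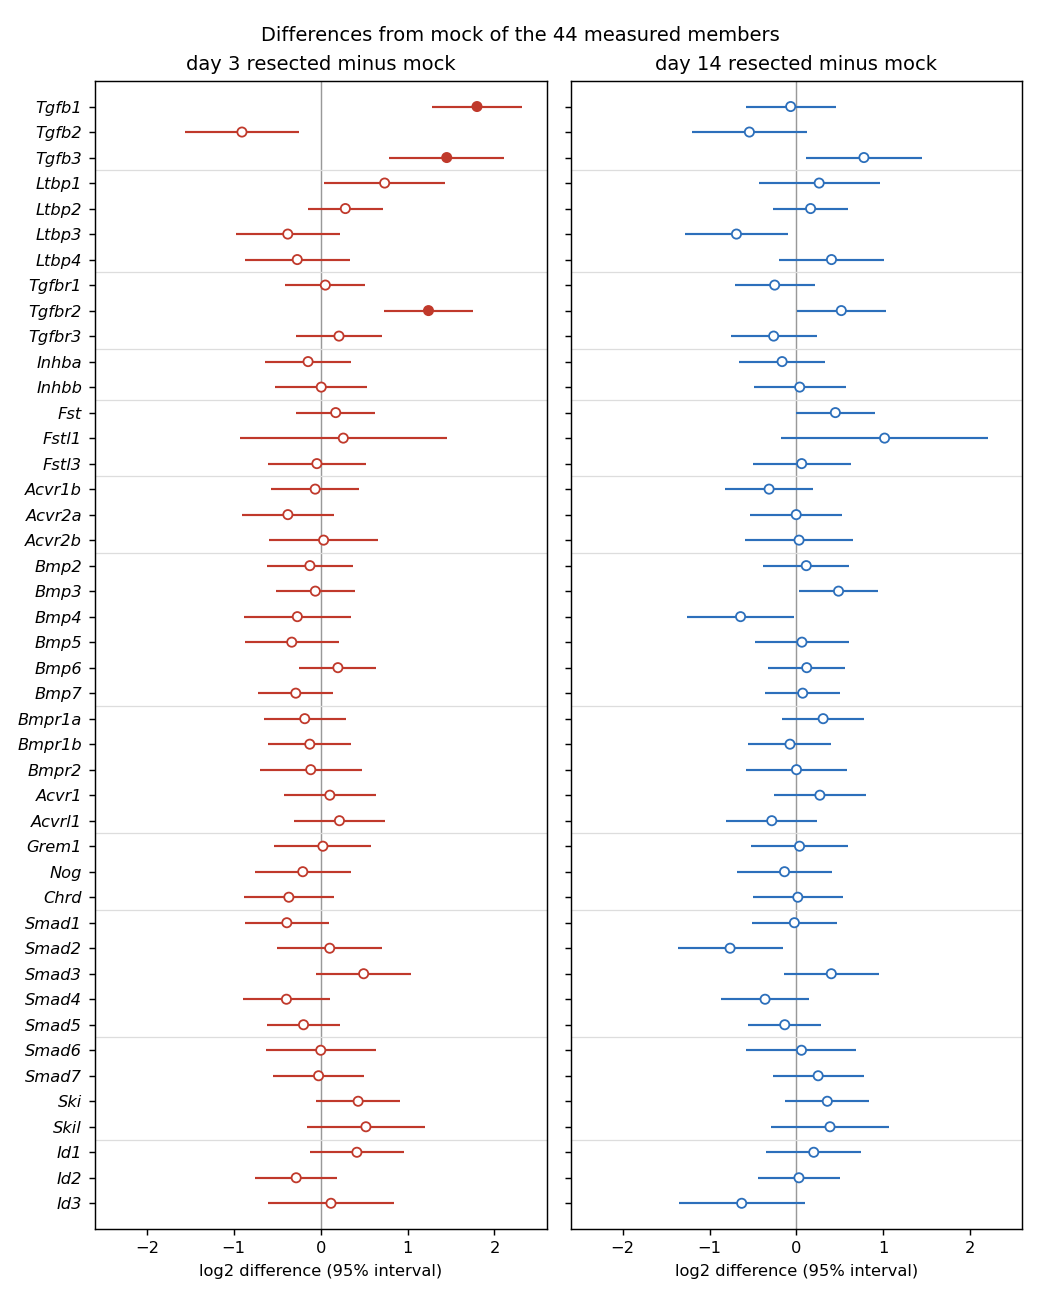
Log2 difference from mock (x axis) of each of the 44 genes on day 3 (left) and day 14 (right) after resection, with 95% intervals from limma, ordered by role from ligands at the top to Id genes at the bottom. Filled points passed the threshold: Tgfb1, Tgfb3 and Tgfbr2 on day 3, and 0 genes on day 14.

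Array medians ran from 5.09 to 5.24, which the common distribution given to all arrays in processing helps to set. Correlations within groups, over transcript clusters, ran from 0.985 to 0.990. The median of the 5222 negative control rows was 4.41 to 4.52 in mock. It was 4.65 to 4.77 on day 3 after resection and 4.51 to 4.61 on day 14. This background signal was thus higher on all day 3 resected arrays than on all others, and its part in the day 3 differences was not tested. The labelled tissue was checked by 6 acinar markers, genes of secretory cells. Of these, Prol1, Pip and Car6 sat at or just under the array maximum of 19.93 on all 9 arrays and could show no rise, Aqp5 was not called, and 2 were called lower on day 3, Bhlha15 (-1.19 ± 0.31) and Slc12a2 (-1.15 ± 0.24). The mean of 5 skeletal muscle markers stayed between 3.49 and 3.94. Over all transcript clusters, 1092 were higher and 301 lower on day 3 (973 and 452 after quantile normalisation, 1013 and 480 after median centring). The table has no detection calls. On all 9 arrays, 28 of the 44 genes lay at or below the 95th percentile of 5222 rows named as negative controls (8.21 to 8.52), 10 lay above it, and 6 were above it on some arrays. For those 28, which include Tgfb3, both activin subunits, all 6 BMP ligands and the 3 secreted BMP antagonists, this percentile cannot tell the level apart from background signal. The array medians of 5.09 to 5.24 also lay below it, so such values are not particular to these genes.

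Tgfb1, the main TGF-beta of immune cells and wounds, stood at 8.86, 8.82 and 8.92 in the mock glands, at 10.67, 10.81 and 10.52 on day 3 after resection, and at 9.31, 8.60 and 8.49 on day 14. All day 3 resected arrays were above all other arrays, and the day 14 arrays lay on both sides of the mock arrays. The rise on day 3 was 1.80 ± 0.24 (SE; mock 8.87 ± 0.05, day 3 resected 10.67 ± 0.14, SD, n = 3 each; limma adjusted p = 5.3e-04). Between day 3 and day 14 it fell by 1.87 ± 0.24 (limma adjusted p = 3.0e-04), which left a difference from mock of -0.07 with a 95% interval of -0.58 to 0.45. Both calls stood under each of the 17 other settings tried. The mean of all transcript clusters of a symbol, 1 of these settings, leaves the difference of a gene with 1 transcript cluster unchanged.

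Tgfb3, a ligand known from mesenchyme, stood at 5.58, 6.08 and 5.50 in mock, at 6.60, 7.14 and 7.76 on day 3 and at 6.89, 6.45 and 6.15 on day 14. Each resected array was above each mock array, and the days overlapped. The rise on day 3 was 1.45 ± 0.31 (limma adjusted p = 0.0116). All 9 arrays of Tgfb3 lay at or below the negative control percentile, so the size of the rise is measured from a background level. Without day 3 resected replicate 3 the difference was 1.15 and the call was lost (adjusted p = 0.0597). On day 14 Tgfb3 differed from mock by 0.78 ± 0.31 (limma adjusted p = 0.548), and day 14 differed from day 3 by -0.67 ± 0.31 (limma adjusted p = 0.257).

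Tgfb2, the ligand best known from epithelium and development, stood at 11.73, 11.18 and 12.02 in mock, at 11.19, 10.54 and 10.49 on day 3 and at 10.56, 11.45 and 11.30 on day 14. The groups overlapped. The day 3 difference was -0.91 ± 0.31, with a 95% interval of -1.57 to -0.24, and did not pass after adjustment (limma adjusted p = 0.114). At day 14 it was -0.54 ± 0.31 (limma adjusted p = 0.686).

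**Figure D2:**
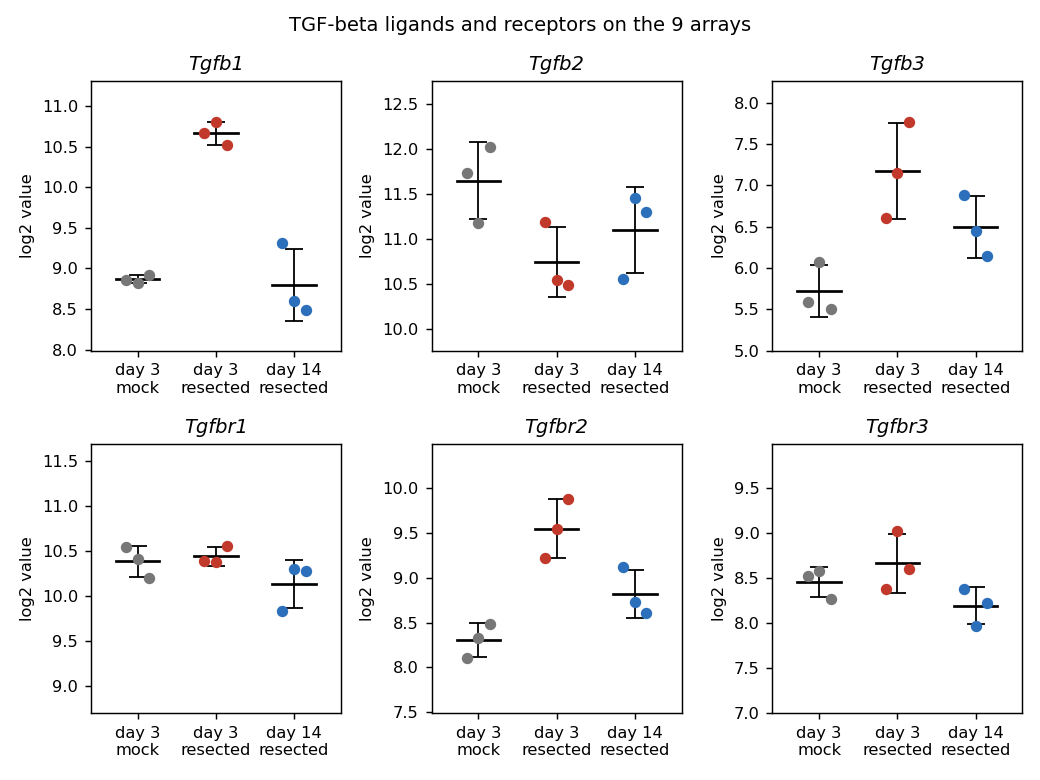
Log2 values (y axis; each panel has its own range) of the 3 TGF-beta ligands and 3 receptors on each array, by group, with the mean as a bar and the SD as whiskers (n = 3). Tgfb1, Tgfb3 and Tgfbr2 are higher in each day 3 resected array than in each mock array, and Tgfbr1 lies within 9.83 to 10.56 throughout.

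Among the receptors, Tgfbr2, the type II kinase that binds TGF-beta first, stood at 8.10, 8.33 and 8.48 in mock, at 9.22, 9.54 and 9.87 on day 3 and at 9.12, 8.73 and 8.61 on day 14. All resected arrays of both days were above the mock arrays, and the day 3 arrays were the highest. The rise on day 3 was 1.24 ± 0.24 (limma adjusted p = 0.00623). Mock replicates 1 and 2 of Tgfbr2 lay at or below the negative control percentile, so the size of the rise is measured from near a background level. On day 14 the difference from mock was 0.52 ± 0.24 (limma adjusted p = 0.605), and that from day 3 was -0.72 ± 0.24 (limma adjusted p = 0.101), so a fall between the days was not called.

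Tgfbr1, the type I kinase that acts with Tgfbr2, stood at 10.55, 10.41 and 10.21 in mock, at 10.38, 10.38 and 10.56 on day 3 and at 9.83, 10.30 and 10.28 on day 14. Mock and day 3 values overlapped, and the day 3 difference of 0.05 had a 95% interval of -0.41 to 0.51. Betaglycan (Tgfbr3), a co-receptor that presents the ligand, differed by 0.21 ± 0.23 on day 3 and by -0.26 ± 0.23 on day 14. Whether the receptors differed from each other was not tested.

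The 4 latent TGF-beta binding proteins, which anchor the inactive ligand in the matrix, gave 0 calls in limma on either day. At an unadjusted p under 0.05, 1 of them differed from mock on each day. Ltbp1 ranged from 4.05 to 4.46 in mock and from 4.62 to 5.72 on day 3, a difference of 0.74 ± 0.32 (limma adjusted p = 0.241) with no overlap. Ltbp3 ranged from 6.79 to 7.32 in mock and from 5.998 to 6.97 on day 14, a difference of -0.69 ± 0.28 (limma adjusted p = 0.555). Ltbp2 and Ltbp4 differed from mock by less than 0.5 on both days.

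Markers of other cells moved with these rises. All 7 measured macrophage markers were called higher on day 3, and their mean log2 level ran from 7.53 to 8.28 in mock, 10.85 to 11.38 on day 3 and 8.25 to 8.69 on day 14. Of 5 fibroblast markers 3 were called higher, with mean levels of 10.63 to 11.22 in mock, 12.49 to 13.50 on day 3 and 11.36 to 11.66 on day 14. Of 6 endothelial markers 0 were called in limma and 2 had an unadjusted p under 0.05 on day 3, with mean levels of 5.99 to 6.25 in mock, 6.46 to 6.79 on day 3 and 6.27 to 6.54 on day 14. Of 4 platelet markers 1 was called higher, the chemokine Pf4 (3.87 ± 0.51), and 2 had an unadjusted p under 0.05. The chemokine Ppbp differed by 1.81 ± 0.61 (limma adjusted p = 0.112) and the integrin Itga2b by 0.01 ± 0.20, and both lay at or below the negative control percentile on all 9 arrays. The mean levels of these 4 were 5.01 to 5.63, 6.15 to 7.62 and 5.17 to 5.43 in the same order. The part of these cells in the rises of Tgfb1, Tgfb3 and Tgfbr2 was not tested, and in whole glands a change in the number of cells of a type and a change in RNA per cell cannot be told apart.

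Activin genes showed no called difference. Inhba, the subunit of activin A, stood at 3.69, 3.74 and 4.23 in mock, at 3.53, 3.68 and 4.00 on day 3 and at 3.55, 3.86 and 3.74 on day 14. Inhbb, the subunit of activin B, stood at 5.13, 5.002 and 5.80 in mock, at 5.52, 5.09 and 5.35 on day 3 and at 5.37, 5.46 and 5.22 on day 14. The groups of both genes overlapped, and the 95% intervals of the day 3 differences were -0.64 to 0.35 for Inhba and -0.52 to 0.53 for Inhbb.

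Fst (follistatin), which binds and blocks activin, stood at 6.50, 6.73 and 6.54 in mock, at 6.79, 6.79 and 6.71 on day 3 and at 6.75, 7.04 and 7.32 on day 14. The day 14 arrays lay above the mock arrays, with a difference of 0.45 ± 0.21 that did not pass (limma adjusted p = 0.613). Fstl1, a secreted follistatin-like glycoprotein of stroma, had the widest spread of the 44 genes, with a standard error of 0.55. It stood at 8.51, 7.01 and 8.94 in mock, at 9.16, 7.04 and 9.03 on day 3 and at 9.37, 9.29 and 8.83 on day 14. Replicate 2 was low in both day 3 groups, and the other 7 arrays lay between 8.51 and 9.37. The differences from mock were 0.26 on day 3 and 1.01 on day 14 (limma adjusted p = 0.668). Fstl3 and the activin receptors Acvr1b, Acvr2a and Acvr2b differed from mock by less than 0.5 on both days. Mock and day 3 values of Acvr2a did not overlap (difference -0.38 ± 0.25).

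The BMP genes gave no call on day 3. All 6 BMP ligands, all 5 receptors and all 3 antagonists differed from mock by less than 0.5 then, with 0 calls in limma and 0 at an unadjusted p under 0.05. Bmp4, a BMP of mesenchyme, stood at 5.23, 4.86 and 4.49 in mock, at 4.08, 4.61 and 5.09 on day 3 and at 4.06, 4.12 and 4.47 on day 14. The day 14 arrays lay just below the mock arrays, a difference of -0.64 ± 0.28 (limma adjusted p = 0.588). Bmp3, known as an antagonist within the family, ranged from 5.62 to 5.84 in mock and from 6.07 to 6.33 on day 14, a difference of 0.48 ± 0.21 (limma adjusted p = 0.579). Bmp2, Bmp5, Bmp6 and Bmp7 differed from mock by between -0.33 and 0.20 over both days, and Bmp7, an epithelial BMP, was lower in each day 3 resected array than in each mock array (-0.29 ± 0.20).

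The BMP receptors Bmpr2 (type II) and Bmpr1a (type I) lay well above the negative control range. Bmpr2 ranged from 12.11 to 13.06 in mock, 12.39 to 12.88 on day 3 and 12.62 to 12.91 on day 14, with differences of -0.11 ± 0.27 and 0.00 ± 0.27. Bmpr1a ranged from 10.47 to 10.85, 10.25 to 10.69 and 10.71 to 11.07 in the same order. It did not overlap between the days after resection (day 14 minus day 3 0.49 ± 0.22, limma adjusted p = 0.245). Bmpr1b, Acvr1 and the endothelial receptor Acvrl1 differed from mock by between -0.28 and 0.27. Grem1 (gremlin) stood at 2.46, 2.71 and 2.56 in mock, at 2.73, 2.46 and 2.61 on day 3 and at 2.35, 3.21 and 2.26 on day 14. Day 14 replicate 2 was the highest of these arrays. Its differences of 0.03 and 0.04, like those of the antagonists Nog and Chrd (between -0.37 and 0.02), were within the spread.

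Smads carry the signal to the nucleus, and 0 of the 5 receptor-regulated and common Smads were called in limma in any comparison. On day 3 Smad1, of the BMP branch, and Smad5, its partner, did not overlap with mock, with differences of -0.39 ± 0.22 and -0.20 ± 0.19. Smad3, of the TGF-beta branch, ranged from 7.36 to 7.84 in mock and from 7.77 to 8.40 on day 3 (0.49 ± 0.25, limma adjusted p = 0.324). Smad2, of the same branch, stood at 8.20, 7.65 and 7.50 in mock, at 7.93, 7.78 and 7.95 on day 3 and at 6.54, 6.94 and 7.58 on day 14. The day 14 arrays were all below the day 3 arrays. Smad2 differed by -0.87 ± 0.28 between them (limma adjusted p = 0.0962), and without day 14 resected replicate 3 by -1.15, which passed (adjusted p = 0.0325). The common Smad4 differed from mock by -0.39 ± 0.23 on day 3 and by -0.36 ± 0.23 on day 14.

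The inhibitory Smad6 and Smad7, which are induced by BMP and TGF-beta signals and block the receptors, differed from mock by between -0.02 and 0.25. The co-repressors Ski and Skil, which bind Smads, differed by 0.43 ± 0.22 and 0.52 ± 0.31 on day 3 and by 0.35 ± 0.22 and 0.39 ± 0.31 on day 14, without a call. The Id genes, direct targets of BMP Smads, did not move together. Id1 stood at 5.77, 6.07 and 5.57 in mock, at 6.75, 5.91 and 5.998 on day 3 and at 5.98, 5.99 and 6.03 on day 14. Day 3 replicate 1 was the highest Id1 array, and the day 3 difference was 0.42 ± 0.25 (limma adjusted p = 0.419). Id2 stood at 16.61, 16.33 and 16.53 in mock, at 16.46, 15.97 and 16.20 on day 3 and at 16.43, 16.35 and 16.79 on day 14, so the groups overlapped. Id3 stood at 3.89, 4.31 and 2.70 in mock, at 3.94, 3.64 and 3.67 on day 3 and at 2.95, 3.17 and 2.88 on day 14. Its day 14 arrays were below all day 3 resected arrays (-0.75 ± 0.34, limma adjusted p = 0.251), while mock replicate 3 was the lowest of the 9.

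**Figure D3:**
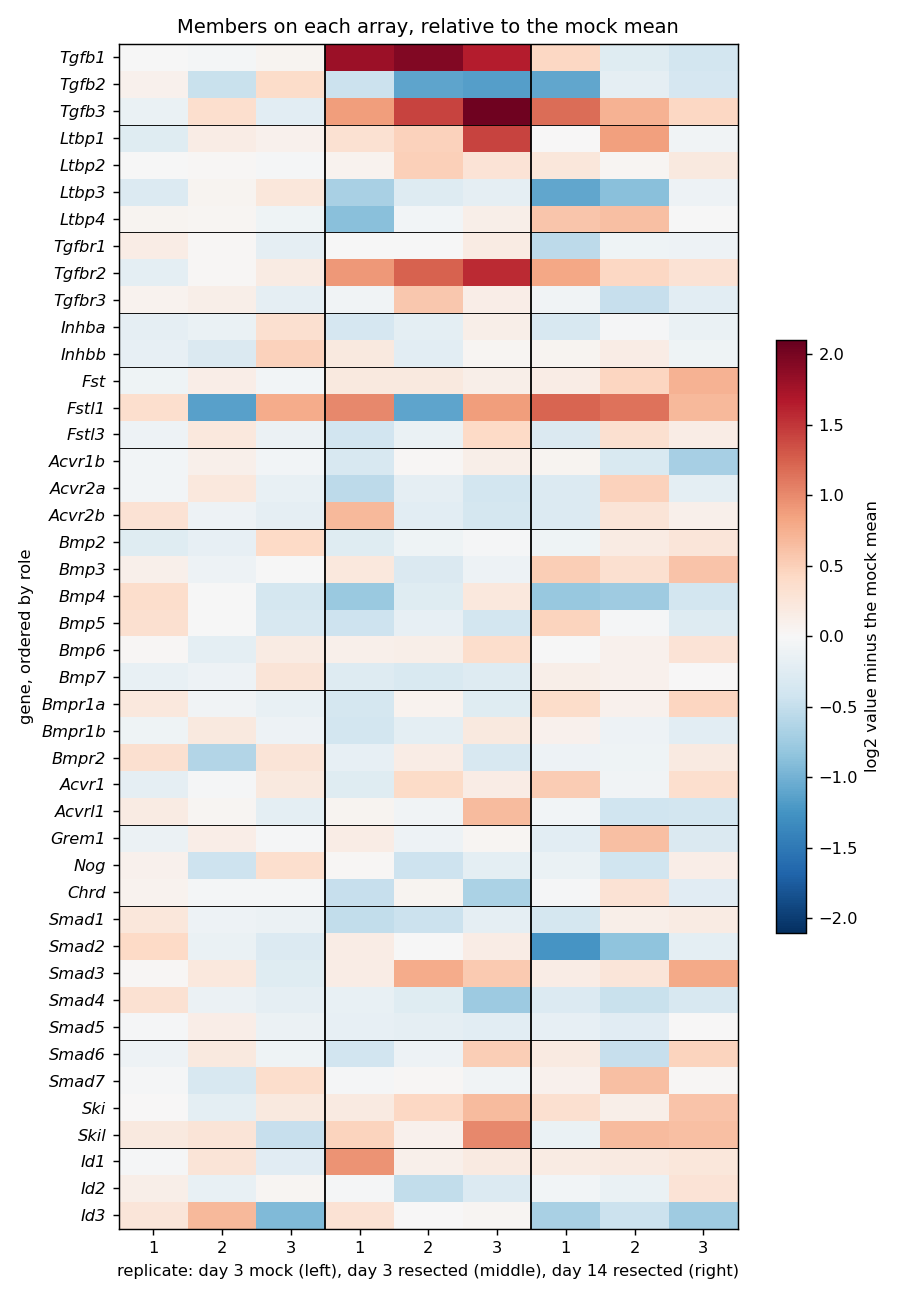
Log2 value minus the mock mean (colour scale) of the 44 genes (rows, ordered by role) on each of the 9 arrays (columns, with the replicate number below). By the mean of the day 3 resected arrays, though not on each of them, Tgfb1 and Tgfb3 are the strongest reds. They reach up to a Tgfb3 value of 7.76 against a mock mean of 5.72. Fstl1 is low in replicate 2 of both day 3 groups.

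On day 3, 36 of the 41 genes without a call had a 95% interval within 1 log2 unit of 0, with a median standard error of 0.24 over the 44 genes. Of these 36, 26 lay at or below the negative control percentile on all 9 arrays, where a narrow interval on the array does not limit the difference in RNA, and 7 lay above it on all 9. At day 14 the interval was as narrow for 34 of the 44, of which 22 lay at or below the percentile and 8 above it on all 9 arrays. The bounds farthest from 0 belonged to Tgfb2 on day 3 (-1.57) and Fstl1 on day 14 (2.20).

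Day 14 against mock asks what remained later, with mock glands taken on day 3. Of the 44 genes 0 passed in limma and 6 had an unadjusted p under 0.05 (Tgfb3, Ltbp3, Tgfbr2, Bmp3, Bmp4 and Smad2, all described above), which is 13.6% beside 8.18% of all transcript clusters. Over all transcript clusters, 0.0991% were called higher and 0.0540% lower, so few calls were made anywhere. Groups did not overlap for 7 of the 44 genes, beside 13.0% of all transcript clusters. The median difference was 0.04 over the 44 genes and -0.0012 over all transcript clusters.

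Day 14 against day 3 after resection compares the days directly, and the mock arrays play no part in the difference. Tgfb1 fell, the 1 call among the 44, beside 4.88% of all transcript clusters called lower and 1.40% called higher. At an unadjusted p under 0.05, 8 of the 44 differed (18.2%, beside 18.9% of all transcript clusters). The days did not overlap for 9 of the 44 (20.5%), beside 25.4% of all transcript clusters. Of these 9, Tgfb1, the 3 TGF-beta receptors, Smad2 and Id3 were lower on day 14, and Bmp3, Bmp7 and Bmpr1a were higher. The receptors were lower by 0.30 to 0.72 and these BMP genes higher by 0.36 to 0.55, none with a call. The median difference was 0.03 over the 44 genes and 0.06 over all transcript clusters.

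Other genes of the pathway were read from 7 lists with 90 genes, of which 83 were measured. On day 3, 12 of the 83 rose (14.5%, beside the 4.92% of all transcript clusters) and 0 fell, and 6 of the 12 were TGF-beta target genes. The lists were chosen with earlier results of these data known, so this share is not a test of the pathway. On day 14, 0 of the 83 were called against mock in limma and 7 had an unadjusted p under 0.05 (8.43%, beside 8.18% of all transcript clusters). Between the days 15 of the 83 fell (18.1%, beside 4.88% of all transcript clusters). Of the 83, 1 rose, beside 1.40% of all transcript clusters called higher, so this rise does not exceed the background. The share that fell is likewise no test of the pathway, as the lists were chosen with earlier results known.

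Among genes that release or store TGF-beta, Thbs1 rose. Thbs1, thrombospondin 1, which can free TGF-beta from its latent form, stood at 5.57, 5.52 and 5.73 in mock, at 8.44, 8.09 and 9.66 on day 3 and at 5.26, 6.13 and 5.70 on day 14. It rose by 3.12 ± 0.36 (limma adjusted p = 1.9e-04), fell by 3.03 between the days, and was the 1 of 8 genes of activation and storage called on day 3. All 3 mock arrays, all 3 day 14 arrays and 1 day 3 resected array lay at or below the negative control percentile, so the size of the Thbs1 difference is measured from a background level. The integrin chains Itgav, Itgb5 and Itgb8 of the same list differed by between -0.07 and 0.10 on day 3, and Itgb6, of epithelium, by -0.74 (limma adjusted p = 0.115). Bmp1, a protease that cleaves procollagens and chordin and is no BMP ligand, stood at 6.23, 6.03 and 5.98 in mock, at 6.96, 7.79 and 8.35 on day 3 and at 5.94, 6.38 and 5.87 on day 14. It rose by 1.62 ± 0.31 (limma adjusted p = 0.00624) and was the 1 of 11 secreted modulators called on day 3, with all 9 arrays at or below the negative control percentile.

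Of 9 other receptors and co-receptors, 3 rose on day 3 and the same 3 fell between the days. Eng (endoglin), a co-receptor of endothelium and activated macrophages, stood at 7.88, 8.17 and 7.72 in mock, at 8.78, 9.57 and 9.83 on day 3 and at 7.62, 8.57 and 7.80 on day 14. It rose by 1.47 ± 0.31 (limma adjusted p = 0.0118). Nrros, which holds latent TGF-beta on myeloid cells, rose by 1.17 ± 0.27 from a mock range of 3.60 to 3.93 to 4.54 to 5.24 (limma adjusted p = 0.0215). Lrrc32 (GARP), its counterpart on regulatory T cells and platelets, rose by 1.32 ± 0.36 from 2.25 to 3.26 up to 3.72 to 5.01 (limma adjusted p = 0.0460). Nrros and Lrrc32 lay at or below the negative control percentile given above on all 9 arrays, and Eng did so on its 3 mock arrays and on 2 of the day 14 arrays, so the sizes of these differences are measured from a background level. The macrophage markers that moved with these genes are given above, and their part was not tested.

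Several of these calls did not hold when a single array was left out. The day 3 call of Eng was lost without day 3 resected replicate 2 (1.38, adjusted p = 0.0530) or 3 (1.25, 0.0672). For Nrros, omitting either mock 1, mock 3 or the first or second day 3 resected array ended it (1.00 to 1.16, adjusted p 0.0585 to 0.0974). For Lrrc32, omitting any of 8 arrays ended it, the exception being replicate 1 of the day 3 resected glands (0.91 to 1.51, adjusted p 0.0534 to 0.183), and a fit of only the groups compared ended it too (adjusted p = 0.0975). Between the days, Eng lost its call when replicate 1 or 3 of day 14, or 2 or 3 of day 3, was omitted (adjusted p 0.0702 to 0.0892). Nrros lost it when replicate 2 or 3 of day 14, or 1 or 2 of day 3, was omitted (0.0623 to 0.114). Lrrc32 lost it when replicate 1 or 3 of day 14, or 3 of day 3, was omitted (0.107 to 0.127).

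**Figure D4:**
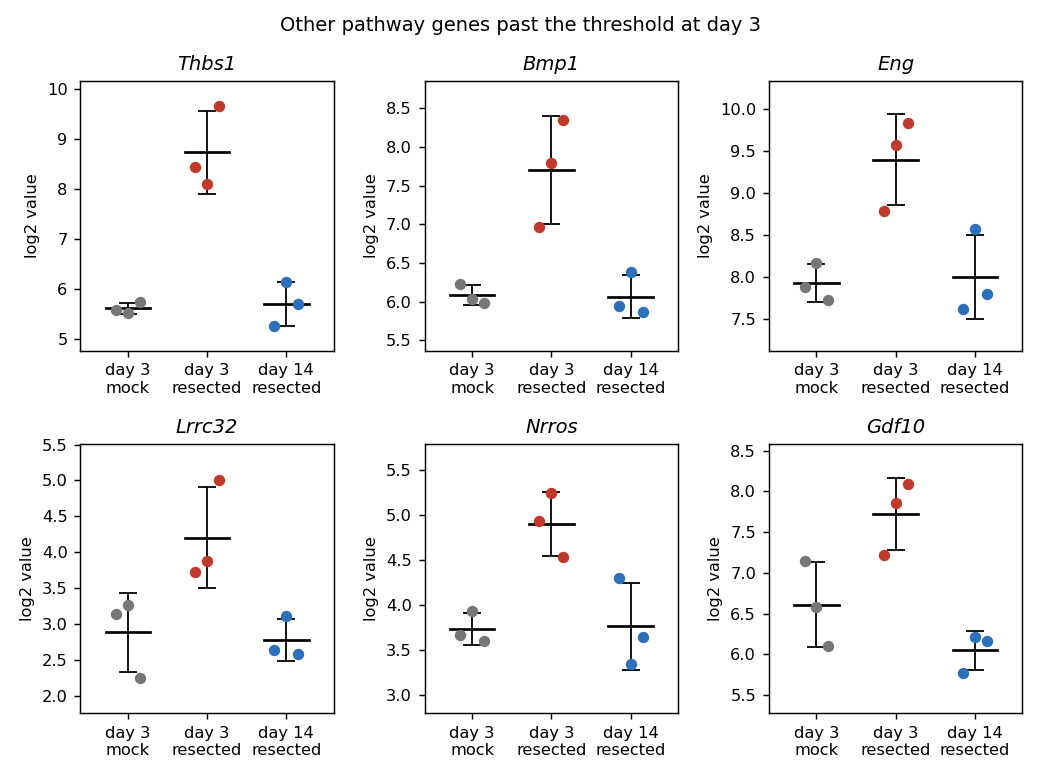
Log2 values (y axis; each panel has its own range) of 6 other pathway genes called higher on day 3, on each array by group, with the mean as a bar and the SD as whiskers (n = 3). Thbs1 ran from 5.52 to 5.73 in mock and from 8.09 to 9.66 on day 3. The negative control percentile of the same array lies above all values of Bmp1, Lrrc32, Nrros and Gdf10 and above the mock values of Thbs1 and Eng.

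Of 20 other ligands of the family 1 was called, Gdf10, a BMP3-like ligand. It ranged from 6.10 to 7.15 in mock, 7.22 to 8.08 on day 3 and 5.77 to 6.21 on day 14, all at or below the negative control percentile. It rose by 1.11 ± 0.30 (limma adjusted p = 0.0456) and fell by 1.67 ± 0.30 between the days (limma adjusted p = 0.00381). The rise missed the threshold when replicate 2 or 3 of either day 3 group, or any day 14 array, was omitted (0.86 to 1.11, adjusted p 0.0602 to 0.191), in a fit of only the groups compared (0.0936) and after quantile normalisation (0.0783). A further 3 genes fell between the days without a call on day 3: the BMP modulator Bmper (-1.16 ± 0.30), the TGF-beta processing inhibitor Emilin1 (-0.98 ± 0.26) and the feedback inhibitor Pmepa1 (-0.78 ± 0.21). All arrays of these 3 lay at or below the negative control percentile, and each lost the call without single arrays. For Bmper these were replicates 1 and 2 of day 14 and replicates 2 and 3 of the day 3 resected glands (adjusted p 0.114 to 0.154). For Emilin1 they were mock replicate 1 and each resected array (0.0516 to 0.170), and for Pmepa1 each array but the second of day 14 (0.0516 to 0.154). Pmepa1 also lost it after quantile normalisation (adjusted p = 0.125), after median centring (0.0647) and in a fit of only the groups compared (0.0627). Of 14 intracellular regulators 0 were called on day 3 in limma and 4 had an unadjusted p under 0.05 (28.6%, beside 18.6% of all transcript clusters).

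TGF-beta target genes were split. On day 3, 6 of 14 rose and 0 fell, and the median difference was 0.87. They included the matrix genes Col1a1 (5.12 ± 0.58), Fn1 (4.86 ± 0.57) and Postn (3.02 ± 0.31), each with a limma adjusted p of 2.3e-04 or below. The others, named after their values were seen, were Tgfbi (2.38 ± 0.37), the cell cycle inhibitor Cdkn1a (2.87 ± 0.40) and Klf10 (1.10 ± 0.25). Klf10 missed the day 3 threshold when replicate 1 or 2 of either day 3 group was omitted (0.93 to 1.12, adjusted p 0.0571 to 0.0765). All 6 fell between the days. Postn and Tgfbi lay above the negative control percentile on all 9 arrays. The 3 mock arrays of Col1a1, Fn1 and Cdkn1a and all 9 of Klf10 lay at or below it, so the sizes of those differences are measured from a background level. The contractile targets Acta2 and Tagln, which myoepithelium also expresses, differed on day 3 by 0.31 ± 0.29 and 0.00 ± 0.34. Many of these genes have other inducers as well, and the macrophage and fibroblast markers moved with them.

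BMP target genes other than Id1 to Id3 gave 0 calls in limma on day 3 among 7 measured. Of the 7, 2 had an unadjusted p under 0.05 (28.6%, beside 18.6% of all transcript clusters). Between the days 1 rose, Hamp, the iron hormone hepcidin that BMP6 is known to induce in liver. It ranged from 5.67 to 6.55 in mock, 5.18 to 5.70 on day 3 and 6.55 to 7.11 on day 14, so the days after resection did not overlap. All 9 arrays lay at or below the negative control percentile. The change between the days was 1.38 ± 0.28 (limma adjusted p = 0.00880). Bmp6 differed by -0.08 ± 0.20, with all 9 arrays also at or below that percentile, and a link between the genes was not tested.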

How the data were processed

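The authors hybridised RNA from 9 glands to Clariom S arrays and deposited log2 values per transcript cluster, made with Transcriptome Analysis Console 4.0 and RMA (background subtraction, a common distribution for all arrays, probe summary), per the labels' design text and the submitters' processing notes. No source used here gives the build or annotation version. Depth does not apply to arrays, and their number limits the precision. Of 28846 rows, 6640 controls were left out and 22206 were tested with no filter on low values. Symbols are RefSeq names (GRCm38.p6) found through the platform's Entrez identifiers, for 19572 transcript clusters.

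limma 3.58.1 in R 4.3.3 fitted a mean per group over all 9 arrays, with empirical Bayes moderation and two-sided tests, adjusted by Benjamini and Hochberg within each of 3 comparisons. The code was tested on simulated data. The same replicate numbers in different groups are not said to pair animals. Replicates are the labels' biological replicates; pooling of animals is not stated.

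The genes, lists and tests were chosen with earlier results of these data known. Named are all listed genes, with every array's value for those past the threshold and for a fixed set, and up to 3 called genes per pathway list and comparison. Alternatives were 2 scalings, a filter on the dimmest 30%, only the groups compared, robust variances, array weights, the replicate block, the mean of all transcript clusters of a symbol, and each array left out. Marker lists of acinar, duct, myoepithelial, fat and muscle cells were also read. On day 3, 2 of 6 acinar, 3 of 6 duct (1 was higher) and 1 of 6 myoepithelial markers were called lower, while 0 of 4 fat and 0 of 5 muscle markers were called in limma, with 0 at an unadjusted p under 0.05.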

Additional observations from a re-analysis of the deposited data

Results flagged for a closer look

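The genes below differed between day 3 and day 14 after resection (day 14 against day 3 resected in limma, Benjamini-Hochberg adjusted p under 0.05). Both days share the mock glands of day 3, so this is a change over time in resected glands, not a comparison of resection effects with a mock group on each day. Among the 44 signalling genes this held for Tgfb1, which changed by -1.87, from 1.80 to -0.07 relative to the same mock glands, with all day 14 arrays below all day 3 resected arrays. Among ligands, receptors and modulators the change was -1.67 for Gdf10, -1.40 for Eng, -1.43 for Lrrc32, -1.14 for Nrros, -1.64 for Bmp1 and -1.16 for Bmper. It was -3.03 for Thbs1, -0.98 for Emilin1 and -0.78 for Pmepa1. Among target genes it was -3.92 for Col1a1, -3.18 for Fn1, -3.16 for Postn, -2.19 for Tgfbi, -2.69 for Cdkn1a and -1.26 for Klf10. Hamp was the one of them that changed upward, by 1.38. The calls of Eng, Lrrc32, Nrros, Bmper, Emilin1 and Pmepa1 were lost without single arrays, as given above. No sample was tested for standing apart from its group, since each group has 3 arrays.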

How the results depend on the processing

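The calls of Tgfb1 and Tgfbr2 on day 3 and the fall of Tgfb1 between the days passed under all 17 alternatives, and Tgfb3 under 16. The mean of all transcript clusters of a symbol leaves these differences unchanged, as each of the signalling genes has 1 transcript cluster. The count of signalling genes higher on day 3 was 2 or 3, and 0 were called at day 14 against mock under any of the 17 alternatives. Leaving out 1 array moved the count of called transcript clusters between 850 (without day 3 resected replicate 3) and 1307 on day 3, between 20 (without day 14 resected replicate 2; 22 without replicate 3) and 58 (without mock replicate 3) at day 14, and between 874 (without day 3 resected replicate 3) and 1429 between the days, where 1 to 2 signalling genes were lower. Median centring moved the median difference of the signalling genes on day 3 to -0.086; the cause was not tested.

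Differences near 0 changed sign, none of them called, and the cause was not tested. Median centring gave -0.021 for Tgfbr1, -0.068 for Inhbb and -0.049 for Grem1 on day 3, and 0.036 for Inhba between the days. Quantile normalisation gave -0.071 for Inhbb on day 3 and -0.085 for Grem1 between the days, and array weights gave -0.019 for Inhbb on day 3. Leaving out 1 array gave, on day 3, -0.037 to 0.13 for Tgfbr1, -0.28 to 0.027 for Inhba, -0.15 to 0.25 for Inhbb, -0.040 to 0.10 for Grem1 and -0.35 to 0.46 for Id3. At day 14 it gave -0.32 to 0.090 for Tgfb1, -0.26 to 0.0066 for Inhba, -0.12 to 0.28 for Inhbb, -0.27 to 0.21 for Grem1 and -0.10 to 0.12 for Id2. Between the days it gave -0.12 to 0.11 for Inhba, -0.083 to 0.13 for Inhbb, -0.29 to 0.18 for Grem1 and -0.37 to 0.049 for Id1.

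With the replicate block 1283, 26 and 1297 transcript clusters were called on day 3, at day 14 and between the days, and the same number of signalling genes. It ended the calls of Gdf10 (adjusted p = 0.0775) and Lrrc32 (0.0755) on day 3 and of Lrrc32 (0.0539), Bmper (0.0594), Emilin1 (0.0681) and Pmepa1 (0.0757) between the days. Arrays with the same replicate number correlated at -0.09 to 0.05 in their deviations from the group means, and 2 of 18 matches were best with the array's own number, so the numbers are not taken as pairs. Signal near background limits what can be seen for 28 of the 44 genes.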

Other observations

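Day 3 resected replicate 3 held the highest value of several genes around TGF-beta, chosen here after their values were seen. Others went the other way: Tgfb1 (10.67, 10.81 and 10.52) and Nrros (4.93, 5.24 and 4.54) were lowest on replicate 3 of these arrays. The TGF-beta target Ccn2, a matricellular growth factor, stood at 5.78, 5.45 and 8.45 on the day 3 resected arrays and at 4.98 to 5.39 in mock, a difference of 1.38 ± 0.57 that did not pass (limma adjusted p = 0.213). The platelet chemokine Ppbp stood at 3.71, 4.51 and 6.80, and Pf4 at 10.34, 10.99 and 12.64. The platelet integrin Itga2b stood at 6.38, 6.51 and 6.30 on the same arrays. Of the Ccn2, Ppbp, Pf4 and Itga2b values given here, Ccn2 on replicate 3 and all of Pf4 lay above the 95th percentile of the negative control rows.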
